A study of Rattus norvegicus with 10 samples.

Results

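The genes described here encode the sarcomere and its contractile proteins in cultured rat myoblasts. A gene was a member if the study's supplementary list of differentially expressed genes (DEGs) held it at any time point and its symbol began with 1 of 29 prefixes, among them Myh, Myl, Tnnt, Acta, Actn, Myom and Trim. The rule found 42 of the 32622 genes in the count table. Of these 42 genes, 38 were grouped by role as genes of the sarcomere or of its assembly, calcium store, energy supply or membrane. The other 4 (Capn6, Trim7, Trim17 and Trim29) matched only by their prefix. Lmod1, a leiomodin of smooth muscle, was kept among the 38 with the thin filament genes. The prefixes for titin, tropomyosin, telethonin and desmin found no gene in the list.

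RNA came from primary myoblasts of the soleus muscle of 3-month-old male Wistar rats, harvested 24 h after pre-plating, a step that separates satellite cells from faster-adhering cells such as fibro-adipogenic progenitors. Control rats were housed normally, and the others were kept in hindlimb suspension (HS), in which the soleus bears no weight, for 1, 3, 7 or 14 days before the cells were taken (HS1, HS3, HS7 and HS14). All cultures were grown in the same serum-rich medium, and there were 2 libraries in each of the 5 groups. The sources used here do not say if libraries of 1 group are separate animals or cultures, so the p-values measure only the spread between these libraries, which may be technical.

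The sarcomere is the repeating contractile unit of striated muscle. Myosin thick filaments pull on actin thin filaments, troponin on the thin filament lets calcium start the contraction, the Z-disc anchors thin filaments and the M-band links thick filaments. Myoblasts make little of these proteins while they divide and switch the genes on together when they exit the cell cycle and differentiate. Several proteins have paralogs that mark the slow, fast, cardiac or developmental fibre programme.

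Library totals lay between 20200972 and 28175200 counts, and 15602 to 15960 genes were detected per library. Every member was detected in every library, with 11 to 80229 counts, and all 42 passed the filter on low counts in every comparison. Levels are given as CPM (counts scaled to the library total, with TMM factors), and 3 counts corresponded to 0.104 to 0.152 CPM. CPM is not scaled by transcript length, so levels are compared between libraries for each gene and not between genes. The myogenic genes Myog, Mymk and Mymx, which drive differentiation and fusion, were detected in all 10 libraries. The HS7 libraries stood apart from each other for the members. Replicate 1 was higher than replicate 2 in 42 of 42 members, with a median log2 difference of 0.87 (range 0.065 to 1.39). Of 13691 genes, 51.9% were higher in replicate 1, and the median was 0.0081. In the other 4 groups 13 to 25 of the 42 members were higher in replicate 1, and the members' median difference between replicates lay between -0.073 and 0.034.

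The upstream sequences of 6 members are shown because these members have different roles and were all higher in HS3 and HS7 than in Control. RefSeq (build GRCr8) gave a promoter window for 34 of the 42 members, of which the 250 bases before the start were searched and are printed 5′ to 3′. Capitals mark an E-box (CANNTG, of which CAGCTG is one form; bound by myogenic factors such as MyoD and myogenin), an MCAT element (CATTCC or its reverse complement GGAATG; bound by TEAD factors), a TATA box (TATAAA, given strand only), a MEF2 site or a CArG box (bound by serum response factor). The windows lie at chr10:52268935-52269184 on the plus strand (embryonic myosin), chr19:68784195-68784444 on the minus strand (skeletal actin), chr13:49818873-49819122 on the plus strand (cardiac troponin T), chr2:213852779-213853028 on the minus strand (calsarcin-1 of the Z-disc), chr5:151816986-151817235 on the plus strand (the ubiquitin ligase MuRF1) and chr1:88189211-88189460 on the plus strand (muscle creatine kinase).
Myh3: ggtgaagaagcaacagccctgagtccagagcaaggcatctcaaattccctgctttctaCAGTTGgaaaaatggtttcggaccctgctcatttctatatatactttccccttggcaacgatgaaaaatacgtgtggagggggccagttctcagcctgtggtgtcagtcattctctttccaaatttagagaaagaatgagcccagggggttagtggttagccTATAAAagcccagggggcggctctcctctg
Acta1: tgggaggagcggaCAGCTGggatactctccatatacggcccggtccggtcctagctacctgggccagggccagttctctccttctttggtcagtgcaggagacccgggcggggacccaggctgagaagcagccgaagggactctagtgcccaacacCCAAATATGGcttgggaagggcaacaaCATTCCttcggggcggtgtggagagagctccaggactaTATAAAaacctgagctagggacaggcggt
Tnnt2: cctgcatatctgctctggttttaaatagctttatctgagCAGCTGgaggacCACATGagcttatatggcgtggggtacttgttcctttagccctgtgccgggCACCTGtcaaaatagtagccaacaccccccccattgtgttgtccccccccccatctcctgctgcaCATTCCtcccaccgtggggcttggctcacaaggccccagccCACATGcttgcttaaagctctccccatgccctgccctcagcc
Myoz2: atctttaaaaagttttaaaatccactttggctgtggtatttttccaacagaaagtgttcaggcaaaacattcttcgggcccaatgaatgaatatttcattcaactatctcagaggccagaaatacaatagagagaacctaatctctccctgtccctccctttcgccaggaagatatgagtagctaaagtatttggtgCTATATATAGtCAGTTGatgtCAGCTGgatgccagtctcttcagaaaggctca
Trim63: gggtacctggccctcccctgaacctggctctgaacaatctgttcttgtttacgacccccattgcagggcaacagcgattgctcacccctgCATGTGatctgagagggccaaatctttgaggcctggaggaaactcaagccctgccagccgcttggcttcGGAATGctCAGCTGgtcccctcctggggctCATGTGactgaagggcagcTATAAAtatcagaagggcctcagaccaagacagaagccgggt
Ckm: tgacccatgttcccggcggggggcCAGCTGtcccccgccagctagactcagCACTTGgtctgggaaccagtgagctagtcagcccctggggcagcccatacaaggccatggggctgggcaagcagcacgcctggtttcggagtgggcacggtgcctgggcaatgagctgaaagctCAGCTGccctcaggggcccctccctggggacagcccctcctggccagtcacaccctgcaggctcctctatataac

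The E-box CANNTG was present in 28 of the 34 windows (82.4%), beside 65.2% of all 27457 promoter windows. The CAGCTG form was present in 10 windows (29.4%), beside 11.9% of all. An MCAT element was found in 6 member windows (17.6%, beside 11.8%) and TATAAA in 4 (11.8%, beside 8.38%). A MEF2 site was found in 4 (11.8%, beside 3.07%), namely Myoz2, Myom3, Casq2 and Trim72, and a CArG box in Acta1 and Ldb3 (5.88%, beside 1.5%). Of the windows shown, that of Acta1 held 4 of the 5 kinds of motif and that of Myh3 an E-box and a TATA box. These are matches of letters and were not tested as binding sites.

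The members were selected on the study's fold change and adjusted p against Control, so the 4 comparisons with Control describe the choice of members, and nothing is read from them. The list holds 4 of the members at HS1, 10 at HS3, 38 at HS7 and 3 at HS14. Of those at HS7, 26 are listed there alone. Most members were lower than Control in HS1, higher in HS3, highest in HS7 and lower again in HS14. Of the 42 members, 36 were lower in HS1 (median log2 fold change -0.58), 41 were higher in HS3 (median 1.25), 38 were higher in HS7 (median 2.13) and 36 were lower in HS14 (median -0.59). Over all genes tested the median lay within 0.01 of 0 in each of these comparisons.

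A gene was called at an adjusted p under 0.01 in edgeR's quasi-likelihood test. Against Control the calls repeat what chose the members, so their counts and the shares over all genes are a description and no evidence of a change. In these comparisons, 23 members were called lower in HS1, where 10.5% of all genes were called lower and 6.38% higher, and 34 were called higher in HS3, where the share over all genes was 7.00% higher and 4.51% lower. In HS14, 28 were called lower, where the share was 17.0%, and 1 (Capn6) was called higher, where it was 15.8%. In HS7, 8 were called higher and 2 (Lmod1 and Trim29) lower, beside 16.6% and 16.2% of all genes. The HS7 count depended on the spread between its 2 libraries: without HS7 replicate 1, or without HS7 replicate 2, 40 members were called, without 1 of the Control libraries 4 or 5 were, DESeq2 called 39, and the fit of all 10 libraries called 39. That fit called 6 in HS1, 11 in HS3 and 5 in HS14. The list's cut lay close to a log2 fold change of 1.5: the smallest fitted change of a listed member was 1.48 (Ckm in HS3), and the largest of a member not listed in that group was 1.47 (Tnni1 in HS3).

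**Figure D1:**
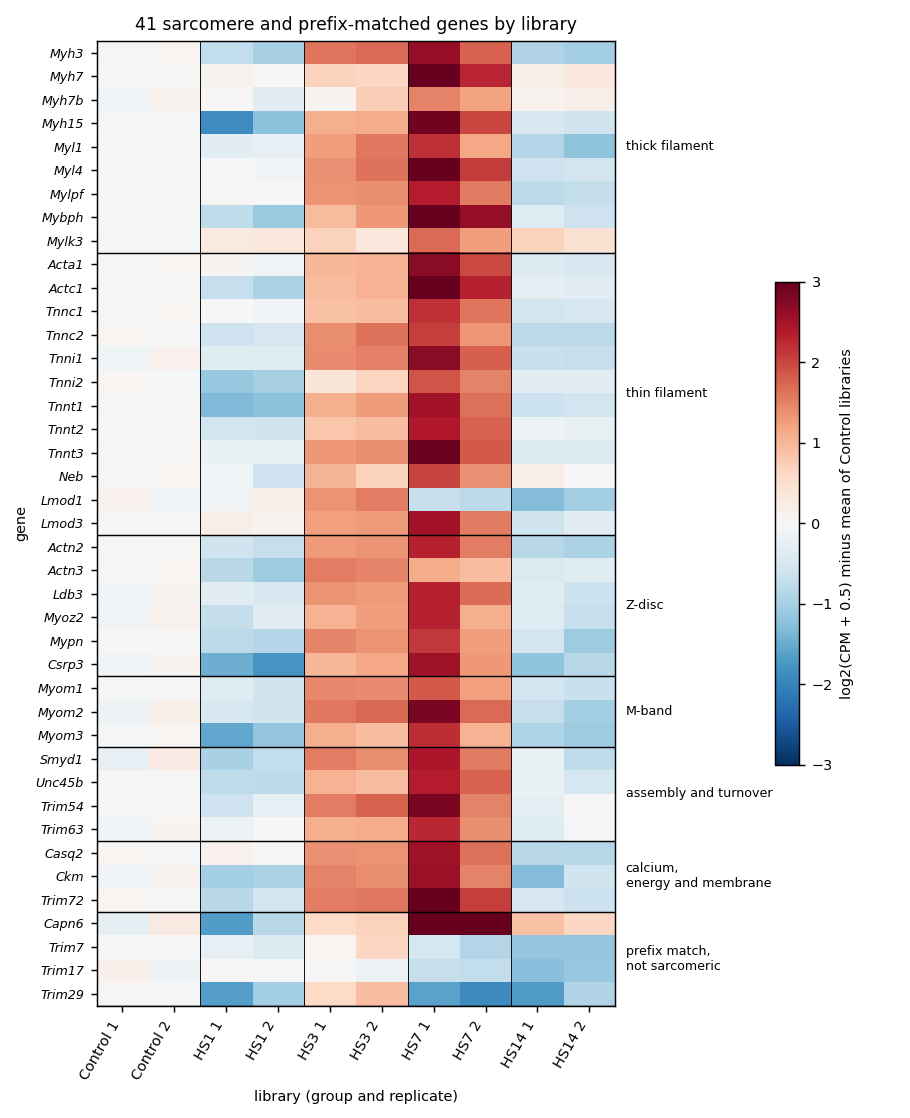
Heat map of 41 of the genes (rows, by role) in the 10 libraries (columns): colour gives log2(CPM + 0.5) minus the mean of the Control libraries, with the scale cut at 3 in either direction. Lmod1 and the genes matched only by prefix aside, HS3 and HS7 are red, and HS7 replicate 1 is darker than replicate 2. HS1 and HS14 are mostly pale or blue there.

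Of the thick filament members, Myh3 (ENSRNOG00000046276) is the embryonic myosin heavy chain of newly formed myotubes. Myh3 stood at 309 and 336 CPM in Control, 194 and 165 at HS1, 979 and 1047 at HS3, 1989.7 and 1106 at HS7, and 172 and 159 at HS14. Its HS1 and HS14 libraries lay below Control, and both HS7 libraries lay above all others. Myh7, the slow and cardiac myosin heavy chain, had another pattern, with 3.28 and 3.34 CPM in Control, 3.60 and 3.31 at HS1, 5.69 and 5.37 at HS3, 37.9 and 18.1 at HS7, and 3.84 and 4.21 at HS14. Myh7 lay between 3.28 and 4.21 CPM in Control, HS1 and HS14, a little above them in HS3, and far above them in both HS7 libraries. Mylpf, a fast regulatory light chain, was at 162 and 162 CPM in Control, 166 and 164 at HS1, 414 and 426 at HS3, 837 and 478 at HS7, and 93.3 and 98.5 at HS14. For Mylpf the HS1 libraries lay just above Control, and HS14 was below both. Mybph, a myosin-binding protein, was at 28.0 and 28.9 CPM in Control, 16.6 and 12.8 at HS1, 55.5 and 70.7 at HS3, 326 and 179 at HS7, and 21.5 and 18.3 at HS14. Its HS7 libraries lay far above HS3, as did those of Myl4, the embryonic and atrial light chain (56.2 and 57.3 CPM in Control, 55.5 and 53.3 at HS1, 147 and 175 at HS3, 505 and 245 at HS7, and 36.7 and 38.4 at HS14). Myl1, the fast essential light chain, was at 24.8 and 25.1 CPM in Control, 19.9 and 20.9 at HS1, 60.3 and 76.1 at HS3, 116 and 56.3 at HS7, and 13.2 and 10.6 at HS14, and its lower HS7 library lay below both HS3 libraries. Myh15, another myosin heavy chain, was at 6.72 and 6.49 CPM in Control and 1.43 and 2.53 at HS1. At HS3 it was at 14.6 and 15.0, at HS7 at 52.2 and 28.1, and at HS14 at 4.63 and 4.21. Its highest group mean was 20.3 times its lowest. Myh7b lay between 1.00 and 2.66 CPM in Control, HS1, HS3 and HS14 and at 4.82 and 3.91 in HS7. The kinase Mylk3 (0.417 to 2.59 CPM) was the sarcomere gene with the fewest counts.

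The thin filament members include the cardiac actin Actc1 (ENSRNOG00000008536) and the skeletal actin Acta1 (ENSRNOG00000017786). Actc1, the main actin of early myotubes, was at 368 and 374 CPM in Control, 231 and 193 at HS1, 707 and 769 at HS3, 3252 and 1845 at HS7, and 307 and 296 at HS14. Acta1, which takes over in mature fibres, was at 304 and 327 CPM in Control, 335 and 294 at HS1, 632 and 652 at HS3, 2056 and 1255 at HS7, and 239 and 226 at HS14. Actc1 was lower in HS1 than in Control without overlap, whereas the Acta1 libraries of HS1 and Control overlapped. The log2 ratio of Acta1 to Actc1 CPM was therefore highest in HS1, with -0.28 and -0.19 in Control, 0.54 and 0.61 at HS1, -0.16 and -0.24 at HS3, -0.66 and -0.56 at HS7, and -0.36 and -0.39 at HS14. Its absolute size depends on transcript lengths, and only its shift between groups is read here. The sign of the shift relative to Control was the same in both libraries of HS1 (up), of HS7 (down) and of HS14 (down). Reads of near-identical actin and myosin paralogs may be shared in counting, which the sources used here do not describe.

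The 7 troponin genes, which carry the calcium switch, all had their highest group mean in HS7. For troponin I, the slow Tnni1 was at 43.7 and 51.5 CPM in Control, 36.6 and 36.3 at HS1, 128 and 136 at HS3, 309.8 and 166 at HS7, and 29.5 and 29.1 at HS14. The fast Tnni2 was at 14.2 and 13.0 CPM in Control, 5.93 and 6.62 at HS1, 17.7 and 21.4 at HS3, 51.6 and 39.4 at HS7, and 10.9 and 10.7 at HS14. The log2 ratio of Tnni2 to Tnni1 was lower in HS1, HS3 and HS7 than in Control. It was -1.62 and -1.98 in Control, -2.63 and -2.45 at HS1, -2.85 and -2.66 at HS3, -2.59 and -2.08 at HS7, and -1.43 and -1.45 at HS14. For troponin T, the slow Tnnt1 was at 18.7 and 17.6 CPM in Control, 6.91 and 7.49 at HS1, 38.8 and 44.6 at HS3, 105 and 57.6 at HS7, and 11.3 and 12.0 at HS14. The fast Tnnt3 was at 40.1 and 42.3 CPM in Control, 35.6 and 35.1 at HS1, 103 and 109 at HS3, 322 and 149 at HS7, and 30.7 and 31.0 at HS14. The log2 ratio of Tnnt3 to Tnnt1 was highest in HS1, with 1.10 and 1.27 in Control, 2.36 and 2.23 at HS1, 1.40 and 1.29 at HS3, 1.61 and 1.37 at HS7, and 1.44 and 1.38 at HS14. The cardiac and embryonic Tnnt2 was at 114 and 114 CPM in Control, 75.9 and 75.3 at HS1, 202 and 218 at HS3, 599.9 and 387 at HS7, and 102 and 96.8 at HS14. Of the calcium-binding troponin C genes, the slow and cardiac Tnnc1 was at 91.5 and 97.8 CPM in Control, 94.5 and 89.2 at HS1, 174 and 180.2 at HS3, 436 and 287 at HS7, and 64.9 and 66.4 at HS14. The fast Tnnc2 was at 23.8 and 21.8 CPM in Control, 14.6 and 16.0 at HS1, 60.5 and 71.4 at HS3, 97.5 and 57.5 at HS7, and 12.8 and 12.9 at HS14, and its log2 ratio to Tnnc1 was highest in HS3, at -1.53 and -1.34, and lowest in HS1, at -2.69 and -2.48. Relative to Control, HS1 thus had a lower ratio of fast to slow form for troponin C and troponin I and a higher one for troponin T. These ratios are descriptions and were not tested.

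Nebulin (Neb), the giant ruler of the thin filament, was at 169.8 and 185 CPM in Control, 161 and 115 at HS1, 358 and 288 at HS3, 719.7 and 457 at HS7, and 203 and 176 at HS14. Its lower HS1 library lay well below the other, and its HS14 and Control libraries overlapped. The leiomodins nucleate actin filaments. Lmod3, the form of skeletal muscle, was at 20.5 and 19.2 CPM in Control, 22.6 and 21.2 at HS1, 47.0 and 48.9 at HS3, 116 and 59.9 at HS7, and 13.0 and 15.5 at HS14, with HS7 highest. Lmod1, the form of smooth muscle, was at 6.13 and 5.01 CPM in Control, 5.15 and 6.45 at HS1, 14.9 and 17.0 at HS3, 3.24 and 3.00 at HS7, and 1.94 and 2.44 at HS14. Lmod1 was highest in HS3 and lower in both HS7 libraries than in every Control, HS1 and HS3 library, the reverse of Lmod3 in HS7. The list holds Lmod1 only at HS3 and Lmod3 only at HS7, so their peaks repeat in part the choice of the members.

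At the Z-disc, the alpha-actinin Actn2 (ENSRNOG00000017833) was at 138 and 144 CPM in Control, 93.4 and 87.6 at HS1, 343 and 357 at HS3, 697 and 408 at HS7, and 79.2 and 73.1 at HS14. Its fast paralog Actn3 was at 9.69 and 10.7 CPM in Control, 5.48 and 4.62 at HS1, 30.7 and 28.8 at HS3, 22.5 and 19.7 at HS7, and 7.40 and 7.79 at HS14. Actn2 was highest in HS7 and Actn3 in HS3. The list holds Actn2 only at HS7 and Actn3 only at HS3, so these peaks repeat in part the choice of the members. The log2 ratio of Actn3 to Actn2 was lowest in HS7, at -4.95 and -4.37, and highest in HS14, at -3.42 and -3.23. The other Z-disc members Ldb3, Myoz2, Mypn and Csrp3 were highest in HS7 on average. Csrp3 (muscle LIM protein) was at 6.45 and 7.28 CPM in Control, 2.17 and 1.66 at HS1, 14.3 and 15.9 at HS3, 42.1 and 17.7 at HS7, and 2.66 and 3.66 at HS14, so that its HS1 libraries were the lowest of all 10. At the M-band, the myomesins Myom1 and Myom2 link the thick filaments. Myom1 was at 13.4 and 13.2 CPM in Control, 10.1 and 8.67 at HS1, 36.7 and 36.4 at HS3, 48.8 and 31.7 at HS7, and 8.82 and 8.21 at HS14, with 1 HS7 library below both of HS3. Myom2 was at 6.88 and 8.50 CPM in Control, 5.31 and 4.92 at HS1, 23.9 and 26.2 at HS3, 57.2 and 26.1 at HS7, and 4.56 and 3.54 at HS14.

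Of the assembly and turnover genes, the myosin chaperone Unc45b was at 17.5 and 17.8 CPM in Control, 10.2 and 9.97 at HS1, 37.0 and 34.2 at HS3, 91.8 and 61.0 at HS7, and 15.2 and 12.0 at HS14. Smyd1, which acts with it in myosin folding, was at 4.86 and 7.09 CPM in Control, 2.74 and 3.35 at HS1, 18.1 and 16.3 at HS3, 33.9 and 18.4 at HS7, and 5.05 and 3.24 at HS14. Trim63, the atrophy-linked ubiquitin ligase MuRF1, was at 2.41 and 2.73 CPM in Control, 2.25 and 2.61 at HS1, 6.0 and 6.12 at HS3, 14.1 and 7.54 at HS7, and 1.87 and 2.44 at HS14. For Trim63, Control, HS1 and HS14 overlapped, and HS3 and HS7 lay above them. Casq2, the calcium buffer of the sarcoplasmic reticulum in slow and cardiac muscle, was at 30.9 and 28.1 CPM in Control, 32.0 and 29.8 at HS1, 77.1 and 75.2 at HS3, 175 and 93.2 at HS7, and 16.3 and 16.2 at HS14. Its HS1 libraries overlapped Control and its HS14 libraries were lower. Ckm, the muscle creatine kinase, was at 7.47 and 8.50 CPM in Control, 3.68 and 3.92 at HS1, 23.2 and 21.6 at HS3, 50.1 and 23.1 at HS7, and 2.94 and 5.05 at HS14. Trim72, which reseals membranes, ran from 3.19 CPM in an HS1 library to 54.3 CPM in an HS7 library.

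Of the 4 genes that matched by prefix alone, Capn6 was highest in HS7 and the others were not. Capn6, a calpain-family protein without protease activity, was at 3.40 and 5.23 CPM in Control, 0.981 and 2.18 at HS1, 6.66 and 7.16 at HS3, 71.2 and 37.4 at HS7, and 8.16 and 6.74 at HS14, with its highest group mean 34.4 times its lowest. Trim29 was at 3.24 and 3.03 CPM in Control, 0.654 and 1.31 at HS1, 5.03 and 6.36 at HS3, 0.689 and 0.474 at HS7, and 0.622 and 1.43 at HS14, high in HS3 and low in HS1, HS7 and HS14. Trim17 was at 3.95 and 3.07 CPM in Control, 3.60 and 3.35 at HS1, 3.51 and 3.06 at HS3, 1.99 and 1.90 at HS7, and 1.18 and 1.31 at HS14. Trim17 was at a like level in Control, HS1 and HS3 and lower in HS7 and HS14. Trim7 was at 1.78 and 1.78 CPM in Control, 1.43 and 1.18 at HS1, 1.88 and 2.98 at HS3, 1.09 and 0.750 at HS7, and 0.519 and 0.505 at HS14, and its HS14 libraries were the lowest.

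**Figure D2:**
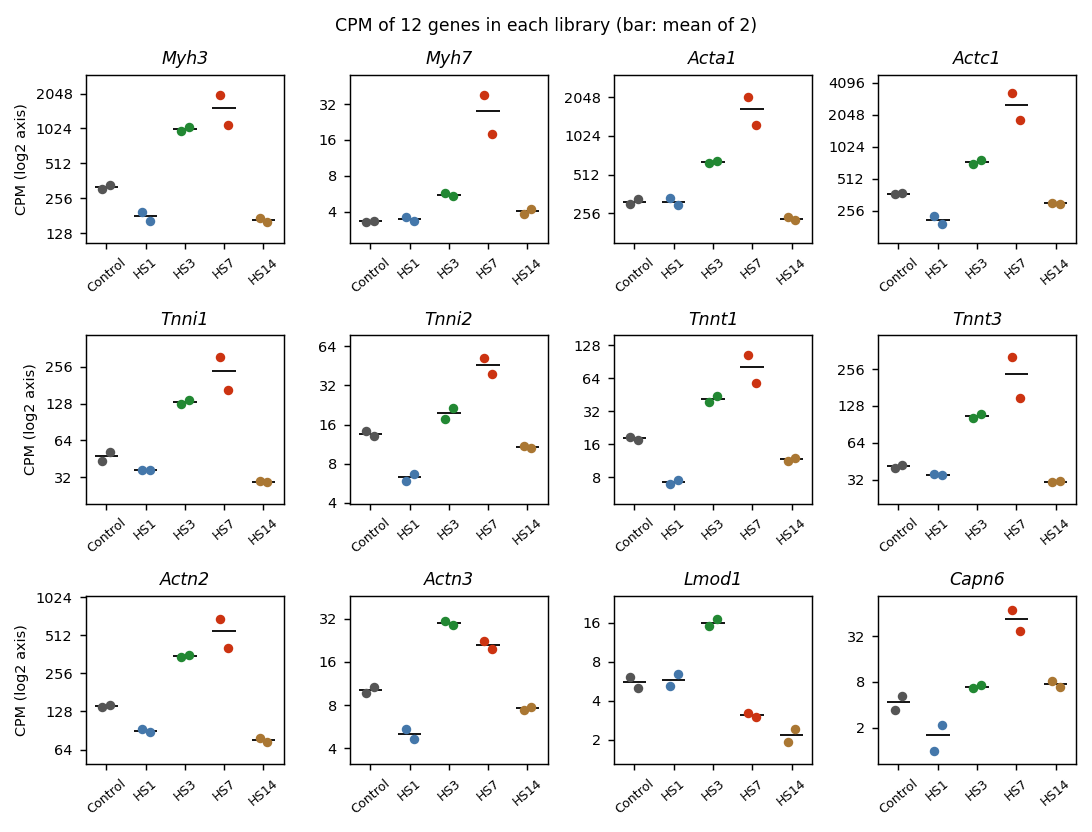
CPM (log2 axis) of 12 genes in each library, with a bar at the mean of the 2 libraries of a group. Myh7 is far above the other groups in HS7, Actn3 and Lmod1 peak in HS3, and Capn6 stays above Control in HS14.

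Ordered by group mean, 37 of the 42 members were highest in HS7, and in 28 of these both HS7 libraries lay above the other 8. Lmod1, Actn3, Trim7 and Trim29 were highest in HS3 and Trim17 in Control. The lowest group was HS14 for 20 members, HS1 for 19, Control for 2 (Myh7 and Mylk3) and HS7 for 1 (Trim29). The full order HS7, HS3, Control, HS1, HS14 held for 14 members, and the order with HS14 above HS1 held for another 14. The list holds 38 of the 42 members at HS7, so these orders repeat in large part the choice of the members. They were not counted over all genes.

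Comparisons between suspension groups could be tested for members that the list holds in neither of the groups compared. Such members were still chosen, since being unlisted went with a fitted change against Control of at most 1.47 in size on the log2 scale. All these comparisons use the edgeR test over all genes, and those that share a group share its libraries.

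Between HS1 and HS3, 23 of 28 such members rose, 0 fell and 5 were not called (Myh7, Myh7b, Mylk3, Trim7 and Trim17). The median log2 fold change was 1.62, and 15 of the 23 passed 1.5. Over all 13008 genes tested, 17.2% were called higher and 13.3% lower, 5.69% were called higher beyond 1.5, and the median was -0.0072. All 10 thin filament genes rose, as did all 4 of the Z-disc, both of the M-band, both of assembly and turnover, and Casq2. Of the thick filament, Mybph, Myl1 and Mylpf rose and the other 3 were not called. Actn2 rose by 1.96 ± 0.0861 (SE) on the log2 scale (edgeR adjusted p = 5.07e-18). Tnnt1 rose the most, by 2.54 ± 0.137 (SE) (edgeR adjusted p = 6.43e-16), and Tnnc1 the least of those called, by 0.96 ± 0.0861 (SE) (edgeR adjusted p = 1.15e-10). Actc1 rose by 1.81 ± 0.0909 (SE) and Acta1 by 1.04 ± 0.0843 (SE). Neb rose by 1.23 ± 0.186 (SE), with an edgeR adjusted p of 0.00290. Myh7 differed by 0.68 ± 0.241 (SE) (edgeR adjusted p = 0.0232), with 76 to 135 counts in these 4 libraries. All 5 genes not called had at most 135 counts per library in HS1 and HS3. So did Myoz2, with 12 to 86 counts in these libraries, which was called.

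Between HS3 and HS14, 25 of 29 such members fell, 0 rose and 4 were not called (Myh7, Myh7b, Mylk3 and Capn6). The median log2 fold change was -1.76, and 17 changed by more than 1.5, while of all 13103 genes tested 18.1% were called lower and 13.8% higher, 4.94% were called lower beyond 1.5, and the median was 0.011. All 10 thin filament genes, all 5 Z-disc genes and all 3 M-band genes fell. Myl1 fell the most, with a log2 fold change of -2.54 ± 0.130 (SE) (edgeR adjusted p = 9.23e-13). Actn2 changed by -2.22 ± 0.0820 (SE) (edgeR adjusted p = 2.91e-17) and Casq2 by -2.25 ± 0.102 (SE) (edgeR adjusted p = 1.93e-15). Neb fell the least, with -0.79 ± 0.102 (SE) (edgeR adjusted p = 1.28e-05), followed by Tnni2 with -0.88 ± 0.143 (SE). Capn6 differed by 0.09 ± 0.189 (SE) (edgeR adjusted p = 0.735).

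**Figure D3:**
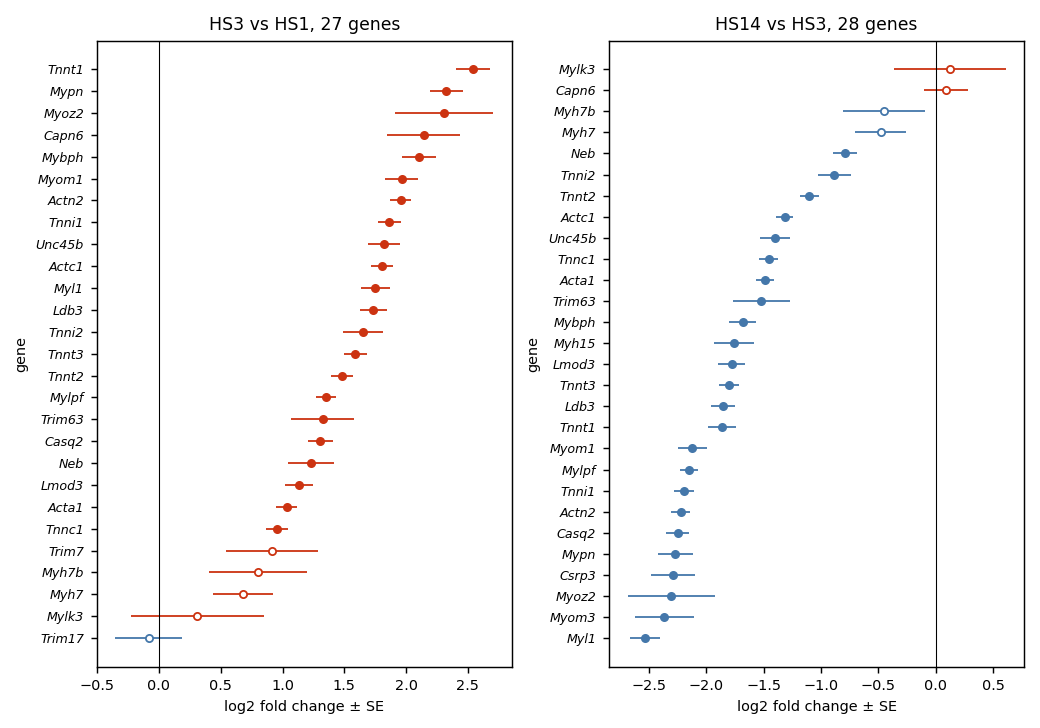
Log2 fold change with SE for the members that were listed in neither group, HS3 against HS1 (left, 27 genes drawn) and HS14 against HS3 (right, 28 genes drawn). Filled points were called by edgeR at an adjusted p under 0.01 and open points were not; 22 filled points lie to the right of 0 on the left and 24 to the left of 0 on the right.

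Between HS1 and HS14, both low, the members had no shared direction. Of 36 testable members, 6 were higher in HS14, 10 were lower and 20 were not called, while 12.0% and 12.8% of all 13015 genes tested were called higher and lower. The count called higher lay near the share over all genes, and the members' median was 0.013. Among those higher in HS14 were Capn6 (2.23 ± 0.282 (SE), edgeR adjusted p = 6.75e-06), Tnni2, Tnnt1, Actc1 and Tnnt2. Lower in HS14 were Lmod1 (-1.43 ± 0.244 (SE), edgeR adjusted p = 1.55e-04), Casq2 (-0.95 ± 0.103 (SE), edgeR adjusted p = 9.73e-07), Mylpf, Myl1, Lmod3, Myl4, Tnnc1, Acta1, Tnni1 and Actn2. The 2 actins differed in opposite directions in this fit. Actc1 was higher in HS14 by 0.48 ± 0.0698 (SE) (edgeR adjusted p = 4.32e-05), and Acta1 changed by -0.46 ± 0.0628 (SE) (edgeR adjusted p = 1.54e-05). So did the troponin I genes, with Tnni2 at 0.76 ± 0.162 (SE) (edgeR adjusted p = 0.00121) and Tnni1 at -0.34 ± 0.0877 (SE) (edgeR adjusted p = 0.00533). The light chains Myl1, Myl4 and Mylpf all fell, and Myh3 was not called (-0.14 ± 0.0717 (SE), edgeR adjusted p = 0.145). In the fit of all 10 libraries, which takes 1 spread per gene over all 5 groups, 3 of the 36 were called.

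**Figure D4:**
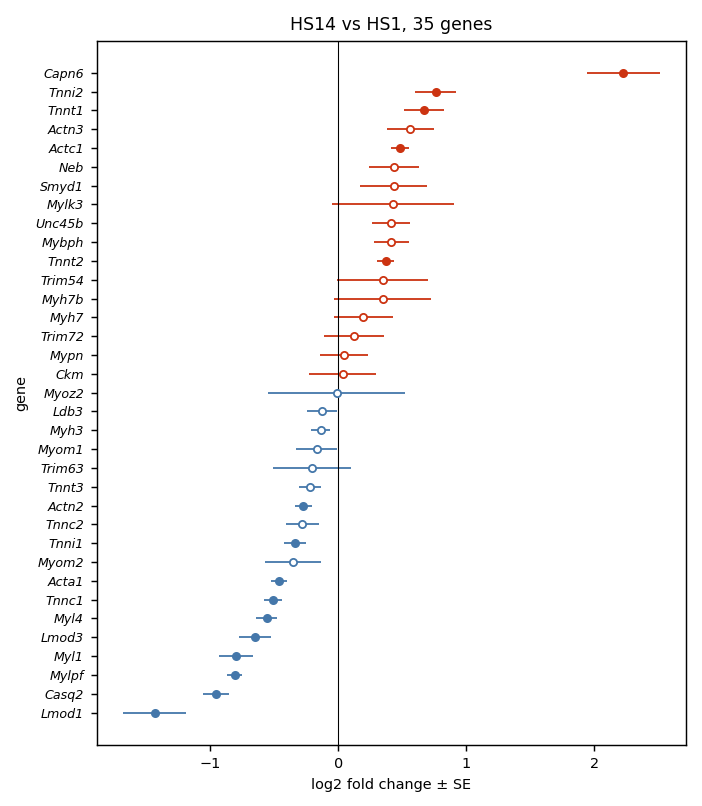
Log2 fold change with SE of HS14 against HS1 for 35 members listed in neither group. Filled points were called by edgeR at an adjusted p under 0.01, 5 to the right of 0 and 10 to the left.

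Few members could be tested against HS7. Actn3 was higher in HS7 than in HS1 by 2.05 ± 0.153 (SE) (edgeR adjusted p = 7.80e-08) and fell from HS7 to HS14, with -1.47 ± 0.136 (SE) (edgeR adjusted p = 3.19e-07). Lmod1 was lower in HS7 than in HS1 (-0.91 ± 0.243 (SE), edgeR adjusted p = 0.00658), a call lost in DESeq2 and without HS1 replicate 1, HS1 replicate 2 or HS7 replicate 2. In these comparisons 17.5% of all genes were called higher in HS7 than in HS1, 16.7% lower, and 12.0% lower and 11.5% higher in HS14 than in HS7. Trim7 and Trim17 were not called between HS7 and HS3 (-1.42 ± 0.404 (SE), edgeR adjusted p = 0.0140, and -0.77 ± 0.303 (SE), edgeR adjusted p = 0.0629), where 12.9% of all genes were called lower and 10.1% higher.

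Other muscle genes with a symbol were also known only from the study's list, so their counts describe and do not support. Of 48 such genes in 4 lists, 44 were called higher in HS3 than in HS1 and 1 lower. The shares over all genes were 17.2% and 13.3%. In HS14, 37 were called lower than in HS3 and 0 higher, beside 18.1% and 13.8% of all genes. Of the 46 tested between HS14 and HS1, 12 were called higher in HS14 and 6 lower. The shares there were 12.0% and 12.8%, and the count called lower lay near its share. Among 6 regulator and fusion genes, Myog, the transcription factor of terminal differentiation, was at 233 and 243 CPM in Control, 116 and 107 at HS1, 426 and 387 at HS3, 884 and 669.8 at HS7, and 182 and 153 at HS14. Mymk, the membrane protein myomaker needed for fusion, was at 72.8 and 75.2 CPM in Control, 51.7 and 45.6 at HS1, 126 and 131 at HS3, 316 and 207 at HS7, and 76.3 and 65.3 at HS14. Myog in HS14 lay below Control, and Mymk in HS14 overlapped it. Both genes were lower in HS1 than in Control here, whereas the paper's RT-PCR reports higher mRNA of both in HS1. All 17 genes of excitation and calcium handling were called higher in HS3 than in HS1, beside 17.2% of all genes. So were 15 of 17 other sarcomere and costamere genes and 6 of 8 of muscle metabolism. Hspb7, a small heat shock protein of the sarcomere and costamere list, went the other way, at 55.6 and 56.9 CPM in Control, 74.4 and 72.4 at HS1, 41.5 and 37.1 at HS3, 28.2 and 33.5 at HS7, and 17.0 and 17.5 at HS14.

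Markers of other cells moved with these groups too. The 9 markers of fibro-adipogenic progenitors and fibroblasts (Pdgfra, Dcn, Lum, Col1a1, Col6a1, Thy1, Dpt, Mfap5 and Fbn1), none at 0 in any library, summed to 8940.4 and 9486 CPM in Control, 2762 and 2746 at HS1, 19158 and 23455 at HS3, 9538 and 9377 at HS7, and 3550.2 and 3301 at HS14. All 9 were called higher in HS3 than in HS1, by a median of 3.29 in log2 units, beside 17.2% of all genes. In HS14, 7 of 9 were called lower than in HS3, beside 18.1% of all genes. Dcn, at a mean of 77.6 CPM in HS3 and 447 in HS14, was called higher in HS14, beside 13.8%. These markers, too, were known only from the study's list, so their calls describe and do not support. Col1a1 made up most of the sum. The members summed to 2119 and 2215 CPM in Control, 1698 and 1525 at HS1, 4957 and 5177 at HS3, 13598 and 7824 at HS7, and 1576 and 1495 at HS14. In HS7 the members' sum was at its highest, and the markers were mixed (median log2 fold change against Control -0.36). Of the 9, 5 were called lower than Control and 3 higher, beside 16.2% and 16.6% of all genes. Pdgfra was at a mean of 148 CPM in Control and 62.5 in HS7, and Col1a1 at 6773 and 7788. The 7 endothelial markers summed to 1.83 to 18.2 CPM, highest in HS14, with Emcn at 0 in both HS1 libraries. Of these 7, 6 were called higher in HS14 than in HS3, beside 13.8% of all genes, and 1 lower, beside 18.1%. That 1 was Kdr, at a mean of 7.41 CPM in HS3 and 3.19 in HS14. The 3 mural markers summed to 64.9 to 389 CPM, mostly Pdgfrb, with Rgs5 at 0 in both Control libraries. Myocd was at a mean of 9.31 CPM in Control and 0.382 in HS7, and Rgs5 was highest in HS14, at 1.21. The part of these cells in the members' differences between HS1, HS3 and HS14 was not tested. In bulk RNA, fewer differentiating cells and less RNA per cell cannot be told apart.

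**Figure D5:**
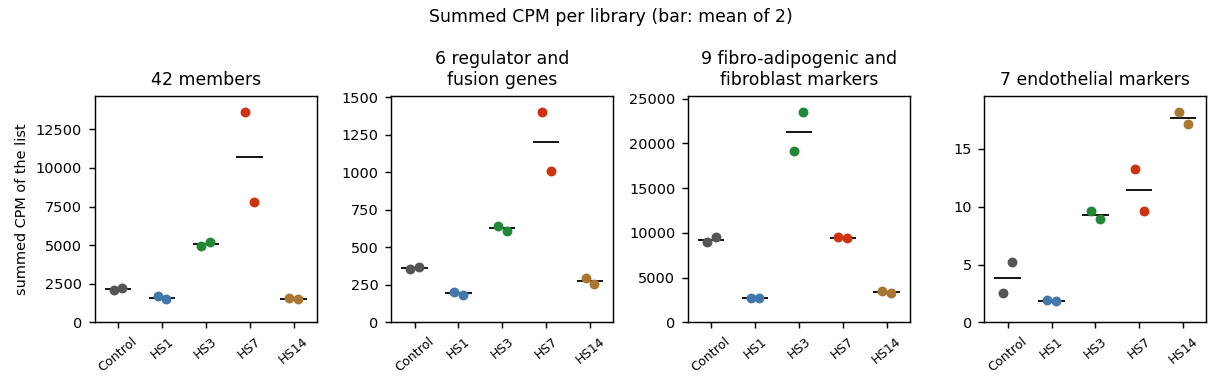
Summed CPM per library of the 42 members, 6 regulator and fusion genes, 9 fibro-adipogenic and fibroblast markers and 7 endothelial markers, with a bar at the mean of 2. Members and regulators are highest in HS7, fibroblast markers in HS3 and endothelial markers in HS14.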

How the data were processed

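Poly(A) RNA of cultured myoblasts was sequenced in 10 stranded libraries, 2 in each of 5 groups. The authors deposited raw read counts of 32622 Ensembl genes, made with STAR and featureCounts 1.6.4. The submitters' notes name STAR 2.7 and the genome build Rnor_6.0, whereas the paper's methods name another build, and the strand setting and the handling of multiply mapped reads are not given in the sources used here. Among counts from 1 to 20, 69.4% to 72.0% were even in each library. Symbols came from the study's supplementary list, which gives one to 770 of its 817 identifiers, so genes never listed there have no symbol here. The list's own fold changes and p-values were not used.

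For each comparison, its 4 libraries were fitted in edgeR 4.0.16 (R 4.3.3, limma 3.58.1) with filterByExpr, TMM and its robust quasi-likelihood option; p-values were adjusted by Benjamini and Hochberg's method across the genes tested. A call needed an adjusted p under 0.01, and a DEG also a log2 fold change beyond 1.5. The SE of a log2 fold change was its size divided by the square root of the F statistic. The fits of HS3 vs HS1 and HS14 vs HS3 were run on simulated counts with the same spread for every gene. This does not bear on the fits with HS7. 1 member enters the counts and medians but is not reported here. Members, roles, marker and muscle gene lists were chosen with earlier results of these data known. All members were to be named by role, with values per library for those with the highest CPM in each role and for the troponin, myosin and alpha-actinin paralogs; values for Lmod1, Lmod3, Csrp3, Smyd1, Trim7, Trim17, Trim29, Ckm, Mybph and the light chains were added after their values were seen. Alternatives were RLE size factors, DESeq2 1.42.0, no filter, all 10 libraries in 1 fit, a replicate block, a fold change beyond 1 and leaving out each library.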

Additional observations from a re-analysis of the deposited data

Results flagged for a closer look

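The difference between suspension groups was itself tested for members listed in neither group, and 3 such comparisons were flagged. Between HS1 and HS3, 23 of 28 members were called by edgeR, each of them higher at HS3 (median log2 fold change 1.62), beside 17.2% of all genes. Between HS3 and HS14, 25 of 29 were called, all lower in HS14, with a median of -1.76, beside 18.1% of all genes. Between HS1 and HS14, 16 of 36 were called, 6 higher and 10 lower in HS14, beside 12.0% and 12.8% of all genes. The count called higher there lay near the share over all genes. The first 2 of these share the HS3 libraries. The summed fibroblast markers, mostly Col1a1, moved in the same directions there, from 2754 CPM on average in HS1 to 21306 in HS3 and 3425 in HS14. Dcn, however, was called higher in HS14 than in HS3. These markers were known only from the study's list, and their part was not tested.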

How the results depend on the processing

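The counts of called members kept within 1.5 times under every alternative between HS3 and HS1 (16 to 23 of 28), HS14 and HS3 (20 to 25 of 29) and HS14 and HS7 (1 of 2). With all 10 libraries in 1 fit, the count moved from 23 to 6 for HS1 vs Control, from 34 to 11 for HS3 vs Control, from 10 to 39 for HS7 vs Control, from 29 to 5 for HS14 vs Control, from 16 to 3 for HS14 vs HS1 and from 0 to 1 for HS7 vs HS3; it shares 1 spread per gene over the groups. For HS7 vs Control, DESeq2 called 39, and leaving out 1 library gave 4 to 40. For HS7 vs HS1, DESeq2 called 1 in place of 2 and leaving out 1 library gave 1 to 2. For HS7 vs HS3, the fit with no filter called 1 (Trim7), and leaving out 1 library gave 0 to 1. Where a group was left with 1 library, that library was assumed to vary like the other group. RLE size factors changed none of these counts. Of 3780 values of single members under an alternative, 38 changed sign, none of them called.

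Replicate numbers did not pair the libraries: the correlation between the deviations of libraries with 1 number was -0.0165 to 0.0417. A fit with the replicate block called 17 members in place of 10 for HS7 vs Control and kept the other counts within 1.5 times (19 for HS1 vs Control, 36 for HS3 vs Control, 27 for HS14 vs Control, 23 for HS3 vs HS1, 18 for HS14 vs HS1, 25 for HS14 vs HS3, 2 for HS7 vs HS1, 0 for HS7 vs HS3 and 1 for HS14 vs HS7). With 2 libraries per group, Mylk3 and Myh7b (11 to 119 counts) were called in none of the comparisons between HS1, HS3 and HS14.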
